A study of Mus musculus with 36 samples.

Results

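The genes described here are 8 antioxidant genes that the transcription factor Nrf2 is known to control (Nqo1, Hmox1, Gclc, Gclm, Slc7a11, Txnrd1, Srxn1 and Gpx2) and the 2 main metallothionein genes (Mt1 and Mt2), 10 of the 46078 genes in the count table. They were taken by gene name from the tables, and all 10 passed the filter on low counts that left 16903 genes for testing. Their transcripts were measured in whole-lung RNA from wild-type female C57BL/6 mice that had received US, S or L, each 50 µg of graphene oxide (GO) in 1 nasal instillation, or D, the same volume of the 5% dextrose carrier with 0 µg GO. Graphene oxide is an oxidised, water-dispersible form of the carbon sheet graphene, and the codes name 3 sheet sizes: ultrasmall (US), small (S) and large (L). Lungs were sampled 1, 7 and 28 days after dosing, at ages of 9, 10 and 13 weeks, which gave 12 groups of 3 libraries (n = 3 per group below). Each group held 4 to 5 animals, pieces of every lobe went into the RNA, and only RNA with an integrity number of at least 8 was kept. The labels tie no library to an animal, so every p-value below measures the spread between these libraries, which may be technical in part. Bulk lung RNA cannot separate a change in the number of cells of a type from a change in RNA per cell.

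Nrf2 (gene Nfe2l2) is held in the cytoplasm and marked for degradation by Keap1, whose cysteines react with oxidants and electrophiles. Freed Nrf2 enters the nucleus, pairs with small Maf proteins and binds the antioxidant response element (ARE), where the haem-sensing repressor Bach1 competes with it. The genes it switches on make and recycle glutathione and thioredoxin, break down haem and reduce quinones. Metallothioneins are small cysteine-rich proteins that bind zinc and copper, and the zinc sensor Mtf1 drives their genes through metal response elements (MREs). Glucocorticoids and the cytokines of the acute-phase response are also known to raise metallothionein transcripts.

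The start regions of the metallothionein genes and the ARE-like stretches of 3 of the other genes are shown because they hold the letters known from metal and antioxidant response elements. The sequences are RefSeq's on GRCm38.p6, written 5′ to 3′ on the gene's strand, and start regions cover 250 bases before the start site and 50 after it. In the first 2 lines capitals mark matches to the MRE core, TGCACNC or TGCGCNC on either strand. Mt2 (ENSMUSG00000031762) spans chr8:94172618-94173567 and Mt1 (ENSMUSG00000031765) chr8:94179089-94180325, both on the plus strand with 5521 bases between them. Their start regions are chr8:94172368-94172667 and chr8:94178839-94179138.
Mt2: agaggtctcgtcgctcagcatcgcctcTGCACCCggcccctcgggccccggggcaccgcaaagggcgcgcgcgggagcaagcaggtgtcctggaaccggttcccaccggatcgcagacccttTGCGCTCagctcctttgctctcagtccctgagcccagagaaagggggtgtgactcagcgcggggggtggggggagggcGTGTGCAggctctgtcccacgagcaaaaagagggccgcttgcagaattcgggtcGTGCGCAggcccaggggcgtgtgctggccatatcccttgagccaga
Mt1: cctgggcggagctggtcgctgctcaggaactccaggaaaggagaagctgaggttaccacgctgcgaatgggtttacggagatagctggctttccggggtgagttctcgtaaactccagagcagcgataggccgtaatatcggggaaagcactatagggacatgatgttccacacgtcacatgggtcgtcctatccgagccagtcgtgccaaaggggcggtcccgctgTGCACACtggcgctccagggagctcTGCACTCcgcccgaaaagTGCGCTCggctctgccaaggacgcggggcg
Mt2 held 4 MRE-like matches and Mt1 held 3. Gclm also held 3 and Srxn1 held 1, so 3 matches were not particular to the metallothioneins. The matches at positions 3 and 21 of Mt1 and 5 of Mt2 lie after the start site annotated by RefSeq. Where transcription of these genes began in the lungs was not examined, so these matches are not shown to be transcribed. Among 32851 RefSeq start regions of the same length, 0.517% held at least 4 and 1.97% at least 3, while 25.7% held at least 1. In the next 4 lines capitals mark the match to the ARE core, TGACNNNGC on either strand, which 12.4% of all start regions held at least once. The stretches lie at chr8:94172524-94172562 (Mt2), chr3:122245408-122245446 (Gclm), chr10:82859099-82859137 (Txnrd1) and chr2:152105537-152105573 (Srxn1), all on the plus strand.
Mt2: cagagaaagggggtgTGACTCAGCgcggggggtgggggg
Gclm: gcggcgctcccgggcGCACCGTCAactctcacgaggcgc
Txnrd1: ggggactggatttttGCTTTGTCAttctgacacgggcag
Srxn1: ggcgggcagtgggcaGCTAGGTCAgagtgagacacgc
The start regions given for Nqo1, Slc7a11 and Gpx2 held no match to those 9 letters, and Mt1 held none either. Of the 10 genes, 8 had a start region in the RefSeq table, and the Txnrd1 stretch comes from 1 of its 3. A match describes the letters only, and its absence says only that they are not in this window.

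Levels between genes were compared per length, as TPM (transcripts scaled to a fixed sum per library), in the 9 D libraries. Gclc, the catalytic subunit of glutamate-cysteine ligase, was highest with a median of 109.5 TPM and a range of 62.7 to 121.1 TPM. Hmox1, the inducible haem oxygenase, followed at a median of 49.9 TPM, then Txnrd1 (thioredoxin reductase of the cytosol) at 47.0, Gpx2 (a glutathione peroxidase of epithelia) at 42.0 and Mt1 at 39.2. Mt2 had a median of 17.7 TPM, Gclm (the modifier subunit of the ligase) 16.2 and Srxn1 (sulfiredoxin, which repairs over-oxidised peroxiredoxins) 15.4. Nqo1, a quinone reductase, stood at 6.72 TPM and Slc7a11, the cystine-glutamate exchanger that imports the cysteine for glutathione, at 0.371 TPM. Ranges over the D libraries did not overlap between Gclc and Hmox1, between Srxn1 and Nqo1, or between Nqo1 and Slc7a11, and overlapped between all other neighbours in this order. Below, levels of 1 gene across libraries are CPM (counts scaled by the library total). Over all 36 libraries Mt2 varied most, 74.0-fold between its lowest and highest CPM, followed by Mt1 (17.7-fold) and Slc7a11 (9.09-fold). Gclm varied least in CPM (1.52-fold), although its deposited TPM values varied 2.92-fold.

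S day 7 replicate 2 held 80566751 counts, and the other 35 libraries held 16154696 to 23808264 each, so that 1 CPM stood for 16.2 to 23.8 counts. By this depth Slc7a11, the lowest of the genes, had 24 to 369 counts. Lung markers were present in every group: the summed level of 9 lung genes was 45450 to 77840 CPM. Some libraries stood apart from their group at day 1. US replicate 1 had the highest levels of acute-phase, glucocorticoid-induced and neutrophil genes of all libraries, while S replicate 1 and L replicate 3 had acute-phase levels no higher than D. D is shared by the comparisons of US, S and L at the same day, so those comparisons are not independent of each other.

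**Figure D1:**
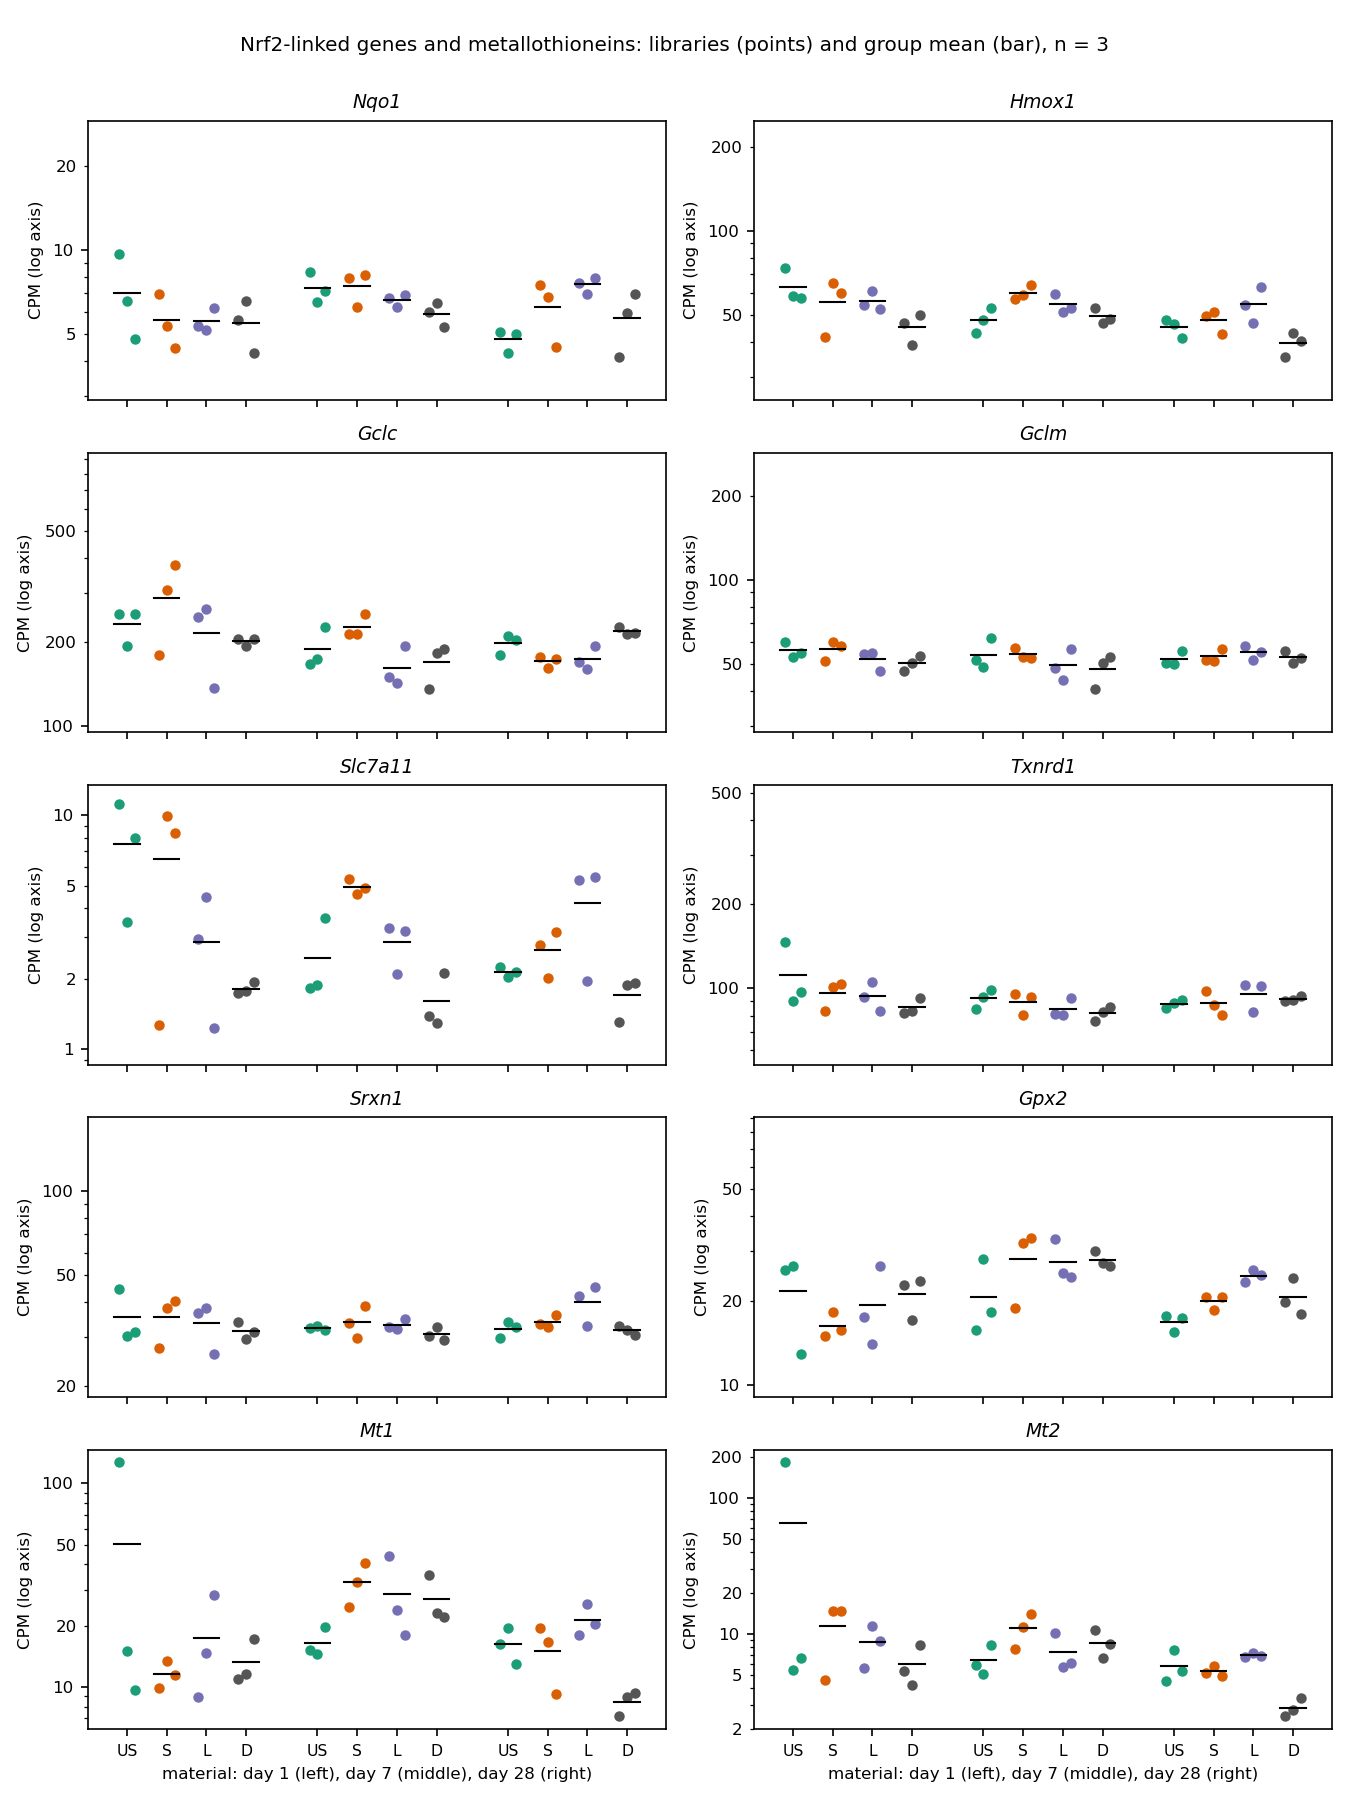
CPM of each of the 10 genes (log axis) in US, S, L and D libraries at days 1, 7 and 28, with a point for each of 3 libraries and a bar for the mean. Mt1 and Mt2 stand far above all others in 1 US library of day 1 (127.1 and 182 CPM), Slc7a11 runs from 1.23 to 11.2 CPM in GO libraries, and Gclm stays between 40.6 and 61.9 CPM.

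At day 1 the largest differences from D were those of the metallothioneins in US lungs and of Slc7a11 in US and S lungs, and none of them passed the threshold of edgeR's quasi-likelihood test (Benjamini-Hochberg adjusted p of 0.05 over 16903 genes). Mt2 had 182, 5.41 and 6.64 CPM in US lungs, against 5.32, 4.18 and 8.31 CPM in D lungs. Mt1 had 127.1, 15.1 and 9.61 CPM in US lungs, against 10.96, 11.6 and 17.2 CPM in D lungs. US replicate 1 alone was high for both genes, and the other US libraries lay within or beside the range of D. The fitted log2 fold change of US over D was 3.54 ± 0.76 (SE) for Mt2, with an adjusted p of 0.0544, and 2.03 ± 0.57 for Mt1, with an adjusted p of 0.0936 (edgeR). Without US replicate 1 these log2 values were 0.06 for Mt2 and -0.07 for Mt1, with adjusted p = 0.987 and 0.986. Without US replicate 2 they were 4.08 and 2.47, with adjusted p = 0.00205 and 0.0108, and without US replicate 3 they were 4.05 and 2.50, with adjusted p = 0.012 and 0.0252 (edgeR).

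US day 1 replicate 1 was also the library with the highest levels of the gene lists linked to metallothioneins as background. The 12 acute-phase genes summed to 4559 CPM there, against 2004 and 2462 CPM in the other US libraries and 1081 to 1440 CPM in D. The 10 glucocorticoid-induced genes summed to 2615 CPM, against 916.5 and 1028 CPM in the other US libraries and 1299 to 1434 CPM in D. Fkbp5, a glucocorticoid-induced chaperone, had 245 CPM in that library and 28.0 and 35.7 CPM in the other US libraries. Slc39a14, a zinc importer induced in the acute phase, had 89.8 CPM there and 20.6 and 31.6 CPM in the others. The 10 neutrophil markers summed to 799.9 CPM, against 214.5 and 289.8 CPM in the other US libraries and 157.5 to 213.9 CPM in D. No gene of these lists was at 0 in all libraries, and the part of these levels in the metallothionein values was not tested.

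In S and L lungs at day 1, Mt2 had 4.54, 14.8 and 14.7 CPM (S) and 5.56, 11.5 and 8.87 CPM (L), against 5.32, 4.18 and 8.31 CPM in D lungs. The S library with the low Mt2 value was replicate 1, the one with acute-phase levels no higher than D. Mt1 had 9.94, 13.5 and 11.4 CPM in S lungs, against 10.96, 11.6 and 17.2 CPM in D lungs, so the Mt2 values of S replicates 2 and 3 had no counterpart in Mt1. In L lungs Mt1 had 8.98, 14.6 and 28.3 CPM, and its highest value was in replicate 3, where Mt2 was not the highest. Mt1 and Mt2 are close paralogs, and how reads shared by both were counted is not given in the sources used here.

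Slc7a11, the cystine importer, had 11.2, 3.48 and 7.95 CPM in US lungs at day 1, against 1.73, 1.78 and 1.94 CPM in D lungs. All 3 US libraries lay above all 3 D libraries, with a log2 fold change of 2.13 ± 0.51 and an adjusted p of 0.0581 (edgeR). In S lungs it had 1.27, 9.86 and 8.40 CPM, so that replicate 1 lay below D and the others far above, with a log2 fold change of 1.89 ± 0.51 and an adjusted p of 0.14 (edgeR). Leaving out US replicates 1, 2 and 3 in turn gave log2 values of 1.70, 2.48 and 2.08 with adjusted p = 0.441, 0.0076 and 0.0641 (edgeR). Leaving out S replicates 1, 2 and 3 gave 2.38, 1.45 and 1.66 with adjusted p = 0.0076, 0.414 and 0.426, so a call depended on which library was absent. In L lungs it had 2.95, 4.47 and 1.23 CPM, with a log2 fold change of 0.70. The 10 genes of the recruited or particle-laden macrophage list summed to 938.6, 615.6 and 730.6 CPM in US lungs, 434.9, 843.2 and 944.6 CPM in S lungs and 754.8, 850.0 and 579.6 CPM in L lungs, against 534.4, 498.9 and 536.8 CPM in D lungs. Within each GO group the library with the lowest sum was also the lowest for Slc7a11, and the part of this list in the Slc7a11 values was not tested.

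Hmox1 had 73.2, 58.5 and 57.6 CPM in US lungs at day 1, against 46.6, 39.1 and 49.7 CPM in D lungs, with no overlap. The log2 fold change was 0.55 ± 0.15, a 1.46-fold higher level with an adjusted p of 0.0761 (edgeR). In L lungs it had 54.3, 60.7 and 52.4 CPM, also above all D libraries, with a log2 fold change of 0.35 ± 0.15 and an adjusted p of 0.918. In S lungs it had 41.6, 64.8 and 59.8 CPM, which overlapped D in replicate 1 only, with a log2 fold change of 0.34 ± 0.15. Without S replicates 1, 2 and 3 in turn this was 0.52, 0.22 and 0.29, with adjusted p = 0.0443, 0.511 and 0.457 (edgeR). Without US replicates 1, 2 and 3 the US value was 0.41, 0.62 and 0.60, with adjusted p = 0.555, 0.0249 and 0.0616.

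Of the glutathione-making ligase, the catalytic subunit Gclc had 180, 306 and 376 CPM in S lungs at day 1, against 205, 194 and 205 CPM in D lungs. S replicate 1 lay below D and the other S libraries above it, and the log2 fold change was 0.57 ± 0.20 with an adjusted p of 0.165 (edgeR). Without S replicates 1, 2 and 3 in turn it was 0.82, 0.52 and 0.33, with adjusted p = 0.0237, 0.419 and 0.492. The modifier subunit Gclm had 51.2, 59.9 and 57.9 CPM in S lungs, against 47.3, 50.4 and 53.3 CPM in D lungs, a log2 fold change of 0.21. In US lungs Gclc and Gclm were at log2 fold changes of 0.28 and 0.22. In the thioredoxin system, Txnrd1 had 147, 90.3 and 96.9 CPM in US lungs, against 81.6, 83.4 and 92.1 CPM in D lungs (log2 fold change 0.45 ± 0.14, adjusted p 0.11, edgeR). US replicate 1 was again the high library, and without it the log2 value was 0.17 (adjusted p 0.776), while it was 0.60 without replicate 2 (0.0152) and 0.53 without replicate 3 (0.074). Srxn1 had 44.5, 30.2 and 31.2 CPM in US lungs, against 34.0, 29.4 and 31.3 CPM in D lungs, with the same library high. Nqo1, often used as a readout of Nrf2, had 9.71, 6.55 and 4.83 CPM in US lungs, against 5.63, 6.57 and 4.29 CPM in D lungs, and the groups overlapped. Gpx2 had 14.9, 18.2 and 15.7 CPM in S lungs, against 22.7, 17.1 and 23.5 CPM in D lungs, with a log2 fold change of -0.33.

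**Figure D2:**
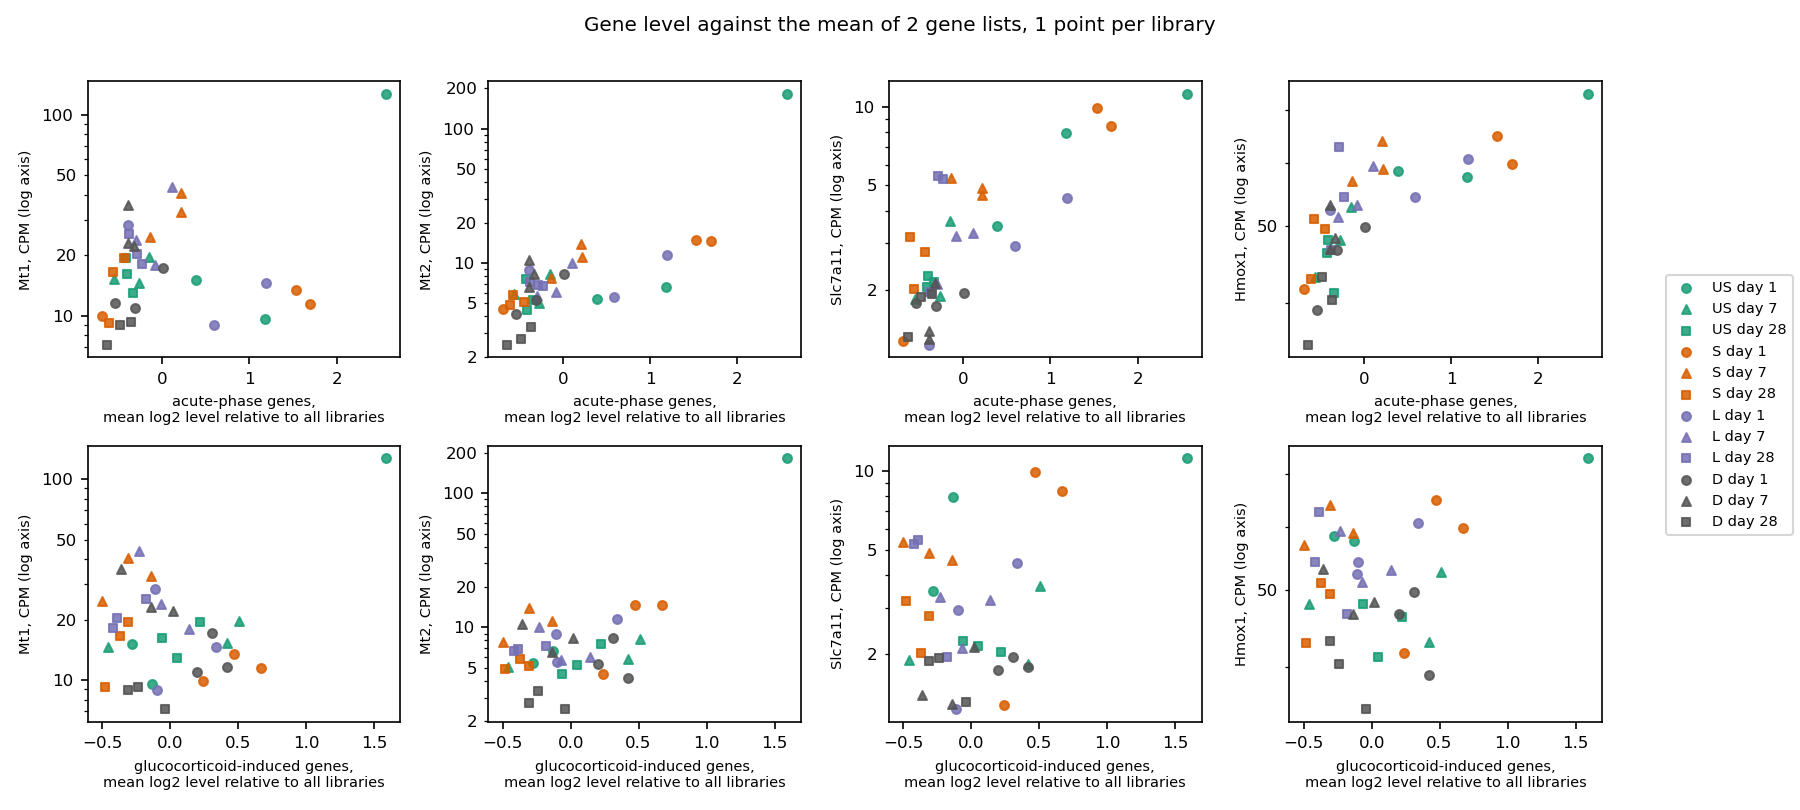
CPM of Mt1, Mt2, Slc7a11 and Hmox1 (log axes) against the mean log2 level of the acute-phase genes (top) and the glucocorticoid-induced genes (bottom) relative to all libraries, with 1 point per library, colour for material and shape for day. US day 1 replicate 1 lies at 2.57 on the acute-phase axis and 1.59 on the glucocorticoid axis, with 182 CPM of Mt2 and 127.1 CPM of Mt1, and the next highest Mt2 values are 14.8 and 14.7 CPM in S day 1 libraries at 1.53 and 1.70 on the acute-phase axis.

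Counted over the 10 genes, edgeR called 0 in US against D at day 1, where it called 0.0887% of all genes. At an unadjusted p under 0.05, 6 genes were higher and 0 lower, against 16.1% of all genes in either direction. All 10 fitted log2 values were above 0, with a median of 0.45, against a median of 0.01 over all genes. In S against D, 0 were called (0.0473% of all genes) and 3 were higher at the unadjusted p (21.0% of all genes), with a median log2 of 0.21 against -0.02 over all genes. In L against D, 0 were called (0.0237%) and 1 was higher at the unadjusted p (4.94%), with a median of 0.16 against 0.01. For the mean of the 3 sheets against D, 0 were called (0.0414%) and 4 were higher at the unadjusted p (15.8%), namely Hmox1, Slc7a11, Txnrd1 and Mt2. Other tools differed at day 1. DESeq2 called 4 of the 10 in US (Hmox1, Mt1, Mt2 and Slc7a11) and 2 for the mean of the sheets (Hmox1 and Slc7a11). Limma on log2(TPM + 1) called 0, but did not test Slc7a11, whose mean TPM was below its minimum of 1. The shares of all genes called by these tools are not given.

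At day 7 Slc7a11 in S lungs was the largest fitted difference from D, and no gene was called. It had 5.33, 4.58 and 4.87 CPM in S lungs, against 1.39, 1.29 and 2.13 CPM in D lungs, with no overlap and little spread among the S libraries. The log2 fold change was 1.56 ± 0.51, a 2.95-fold higher level with an adjusted p of 0.194 (edgeR), and a fit restricted to these groups gave 1.57 with an adjusted p of 0.0208. The recruited or particle-laden macrophage list (10 genes, described at day 28) summed to 896, 771 and 1082 CPM in the same S libraries, against 518, 551 and 512 CPM in D, with 2 of its genes called, and its part in the Slc7a11 value was not tested. US lungs had 1.83, 1.89 and 3.64 CPM of Slc7a11 and L lungs 3.30, 2.10 and 3.21 CPM, each with 1 or 2 libraries within the D range. The macrophage list was not particular to S lungs. It summed to 826.6 to 1888 CPM in L lungs, with Mmp12, Gpnmb and Trem2 called, and to 551.8 to 699.9 CPM in US lungs. Hmox1 had 56.9, 59.0 and 63.9 CPM in S lungs, against 53.1, 46.7 and 48.3 CPM in D lungs, again without overlap (log2 fold change 0.23). Mt1 had 24.7, 32.9 and 40.7 CPM in S lungs and 15.3, 14.5 and 19.7 CPM in US lungs, against 35.5, 23.1 and 22.1 CPM in D lungs. The S values overlapped D and the US values lay below it, with log2 fold changes of 0.24 and -0.73. Mt2 had 7.75, 11.1 and 14.0 CPM in S lungs and 5.86, 5.03 and 8.26 CPM in US lungs, against 10.6, 6.62 and 8.35 CPM in D lungs, and both overlapped D. Gpx2 had 15.7, 28.1 and 18.2 CPM in US lungs, against 30.2, 27.3 and 26.6 CPM in D lungs, with a log2 fold change of -0.47.

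The counts at day 7 were 0 of 10 called by edgeR in each comparison with D. In US against D 2.09% of all genes were called, and 0 of the 10 passed the unadjusted p, against 25.7% of all genes. In S against D 0.45% of all genes were called and 1 of the 10 (Slc7a11) passed the unadjusted p, against 9.33%. In L against D 0.154% were called and 0 of the 10 passed the unadjusted p, against 4.87%. For the mean of the sheets 0.337% were called and 1 of the 10 (Slc7a11, log2 fold change 0.99 ± 0.45) passed the unadjusted p, against 13.3%. DESeq2 also called 0 of the 10 in each of these comparisons. Limma on log2(TPM + 1) called 0 of the genes it tested, which left out Slc7a11.

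At day 28 both metallothioneins were higher in all or nearly all GO libraries than in D, which had the lowest group means of the study. Mt2 had 4.49, 7.59 and 5.29 CPM in US lungs, 5.13, 5.77 and 4.91 in S lungs and 6.72, 7.23 and 6.89 in L lungs, against 2.46, 2.74 and 3.36 CPM in D lungs. All 9 GO libraries lay above all 3 D libraries, at 6.00 ± 1.12 CPM in GO lungs (SD, n = 9) and 2.85 ± 0.46 CPM in D lungs (SD, n = 3). Mt1 had 16.2, 19.4 and 12.9 CPM in US lungs, 19.5, 16.6 and 9.19 in S lungs and 18.1, 25.5 and 20.3 in L lungs, against 7.17, 8.94 and 9.29 CPM in D lungs. Here 8 of the 9 GO libraries lay above all D libraries, and S replicate 3 lay within their range. The log2 fold change of L over D was 1.25 ± 0.80 for Mt2 and 1.299 ± 0.58 for Mt1, with adjusted p = 0.423 and 0.254 (edgeR). The mean of the sheets over D gave 1.05 ± 0.69 for Mt2 and 1.03 ± 0.50 for Mt1, with adjusted p = 0.522 and 0.386. A fit restricted to the groups in question, whose spread does not include the day 1 libraries, called both genes in L against D (adjusted p = 0.00342 for Mt1) and in the mean of the sheets (adjusted p = 0.0227 for Mt1), where it also called Gclc. The share of all genes called by that restricted fit is not given. Macrophage and monocyte markers differed between the same groups. The 10 alveolar macrophage genes summed to 1910 to 2130 CPM in US lungs, 2048 to 2461 CPM in S lungs and 1349 to 1943 CPM in L lungs, against 1462 to 1552 CPM in D lungs, with 0, 1 and 2 of them called higher. The 6 monocyte genes summed to 1929 to 2112 CPM in US lungs, 1898 to 2183 CPM in S lungs and 1247 to 1822 CPM in L lungs, against 1409 to 1521 CPM in D lungs, with 0 called. Chil3 is in both of these lists, so their sums are not independent of each other. The US and S sums lay above D without overlap and the L sums overlapped D. The part of these cells in the metallothionein values was not tested.

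Gclc lay on the other side of D at day 28. It had 180, 210 and 204 CPM in US lungs, 177, 161 and 174 in S lungs and 170, 161 and 193 in L lungs, against 226, 214 and 216 CPM in D lungs. All 9 GO libraries lay below all 3 D libraries, with a log2 fold change for the mean of the sheets of -0.28 ± 0.16 and an adjusted p of 0.463 (edgeR). Its partner subunit Gclm did not share this order, with 49.96 to 57.8 CPM in GO lungs, against 50.4 to 55.6 CPM in D lungs. The D level of Gclc was 219 ± 6.07 CPM at day 28, beside 169 ± 28.8 CPM at day 7 and 201 ± 6.44 CPM at day 1 (SD, n = 3 each).

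In L lungs at day 28, Hmox1 had 54.3, 46.6 and 62.8 CPM, against 35.4, 43.1 and 40.4 CPM in D lungs, with a log2 fold change of 0.44 ± 0.15 and an adjusted p of 0.119 (edgeR). Slc7a11 had 5.26, 1.95 and 5.44 CPM, against 1.31, 1.88 and 1.93 CPM in D lungs, with a log2 fold change of 1.28 ± 0.51 and an adjusted p of 0.2. L replicate 2 was the lowest L library for both genes and lay next to D for Slc7a11. Srxn1 had 42.0, 33.0 and 45.2 CPM in L lungs, against 32.7, 31.7 and 30.6 CPM in D lungs, with the same replicate lowest (log2 fold change 0.31 ± 0.15). Nqo1 had 7.66, 7.00 and 7.97 CPM in L lungs, against 4.16, 5.98 and 6.97 CPM in D lungs, with a narrow gap. All 9 GO libraries also lay above all D libraries for Slc7a11, at 1.95 to 5.44 CPM in GO lungs, against 1.31 to 1.93 CPM in D lungs.

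The same L libraries carried the most transcript of the recruited or particle-laden macrophage list (10 genes). It summed to 2566, 1167 and 2334 CPM in L lungs at day 28, against 397, 472 and 551 CPM in D lungs, and L replicate 2 was again the lowest of the L libraries. Of its 10 genes edgeR called 8 higher and 0 lower in L against D. Mmp12, a macrophage elastase, had 407, 113.2 and 287 CPM in L lungs, against 6.35, 7.35 and 8.84 CPM in D lungs. No marker of the list was at 0 in all libraries, and its part in the values of Hmox1, Slc7a11 and Srxn1 was not tested. The mean log2 level of the 4 clock genes in phase with Arntl, relative to all libraries, was 0.94, 1.10 and 0.81 in US lungs, 0.40, 0.49 and 0.52 in S lungs and -0.25, -0.16 and -0.46 in L lungs at day 28, against 1.08, 0.91 and 0.98 in D lungs. Their part in the day 28 differences was not tested either. Clock genes differed at the earlier days too. Those in phase with Dbp summed to 1058 to 1517 CPM (US), 489.6 to 621.1 (S) and 1069 to 1321 (L) at day 7, against 368.7 to 552.6 CPM in D. At day 1 they summed to 568.5 to 905.0 CPM (US), 827.7 to 1306 (S) and 863.2 to 1352 (L), against 569.4 to 677.3 CPM in D. Their part in the day 1 and day 7 values was not tested.

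**Figure D3:**
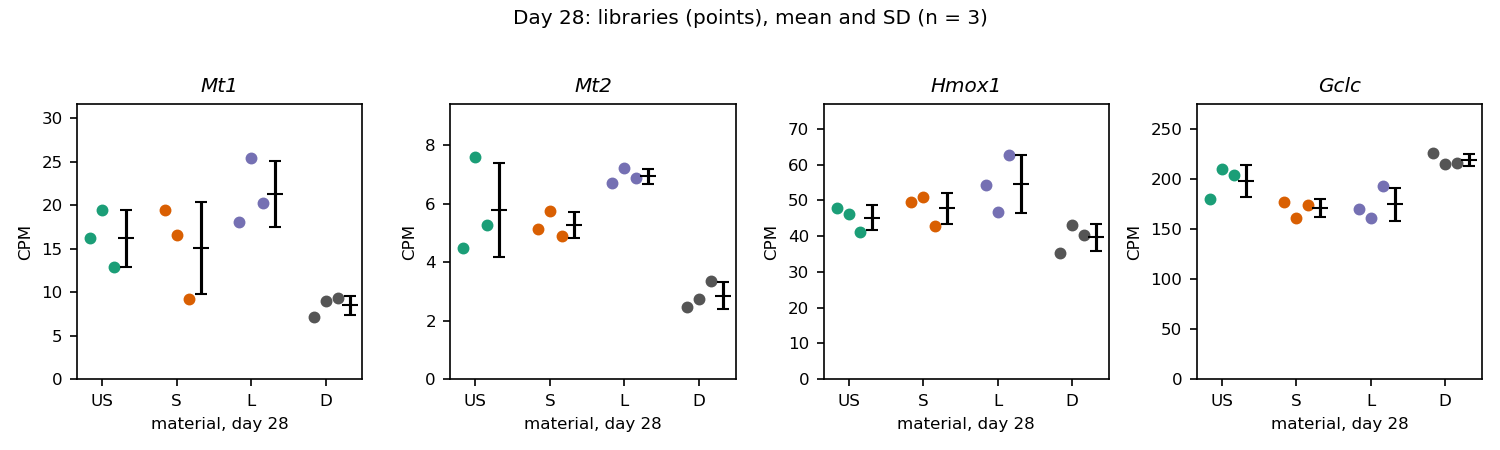
CPM of Mt1, Mt2, Hmox1 and Gclc at day 28 in US, S, L and D lungs, with a point for each library and a bar for mean ± SD (n = 3). All 9 GO points lie above D for Mt2 and below D for Gclc, and the L points of Hmox1 lie between 46.6 and 62.8 CPM, above all D points.

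Over the 10 genes at day 28, edgeR called 0 in L against D, where it called 2.15% of all genes, and 4 were higher at an unadjusted p under 0.05 (Hmox1, Slc7a11, Srxn1 and Mt1), against 16.7% of all genes in either direction. In L, 6 of the 10 lay above D without overlap, as did 16.5% of all genes, and 1 (Gclc) lay below, as did 14.4%. In US against D 0 were called (0.0237% of all genes) and 0 passed the unadjusted p (6.02%). In S against D 0 were called (0.237%) and 0 passed the unadjusted p (9.87%). For the mean of the sheets 0 were called (0.893%) and 2 passed the unadjusted p (12.9%), namely Hmox1 and Mt1, both higher. Over all 9 GO libraries, 2 of the 10 (Mt2 and Slc7a11) lay above D without overlap, as did 2.01% of all genes, and Gclc lay below, as did 3.09%. DESeq2 called 0 of the 10 in these 4 comparisons. Limma on log2(TPM + 1) called 0 of the genes it tested, which left out Slc7a11.

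**Figure D4:**
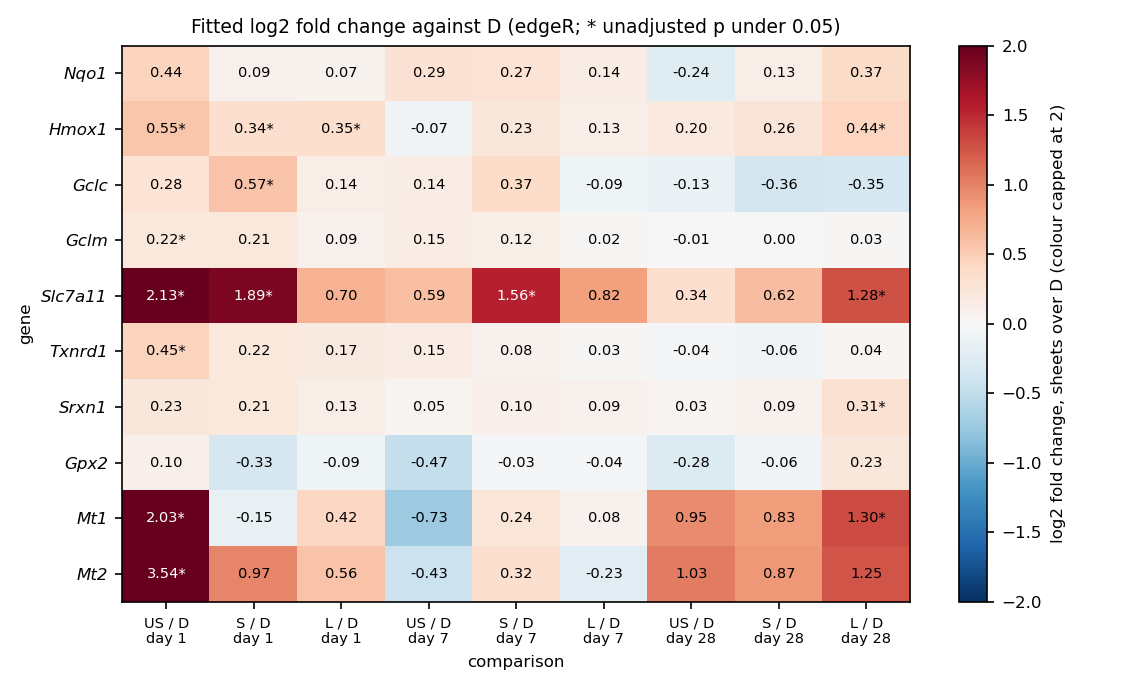
Fitted log2 fold changes (edgeR) of the 10 genes, in rows, for US, S and L over D at days 1, 7 and 28, in columns, with colour capped at 2 and an asterisk at an unadjusted p under 0.05. Slc7a11 is above 0 in all 9 columns, from 0.34 to 2.13, while Mt1 and Mt2 are highest in US at day 1 (2.03 and 3.54) and below 0 in US at day 7 (-0.73 and -0.43).

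Taking the days together, Slc7a11 was the gene whose GO libraries most often lay above every D library. Of 27 GO libraries 19 exceeded the highest of the 9 D libraries (2.13 CPM) and 2 lay below the lowest (1.29 CPM), namely S day 1 replicate 1 and L day 1 replicate 3. For Hmox1 the numbers were 13 above and 0 below, for Txnrd1, Srxn1 and Nqo1 10 above each, for Gclm 8, for Gclc 7, for Mt2 6, and for Mt1 and Gpx2 3. Gpx2 had 6 GO libraries below the lowest D library and Srxn1 had 2. No count of this kind over all genes is given, and D is pooled over days here, so its drift between days enters the order of the genes. The highest D values of Mt1 and Mt2 (35.5 and 10.6 CPM) were those of day 7. Against D of day 28 alone, 8 (Mt1) and 9 (Mt2) of the 9 GO libraries of that day lay above.

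The sizes of sheet were compared with each other within each day. At day 1, Mt2 was at a log2 difference of -2.57 ± 0.72 in S against US and -2.98 ± 0.73 in L against US, and Mt1 at -2.17 ± 0.57 and -1.61 ± 0.56, with adjusted p from 0.12 to 0.577 (edgeR). Without US replicate 1 the Mt2 differences were 0.91 and 0.50 and those of Mt1 -0.08 and 0.48. Slc7a11 was at -1.42 ± 0.48 in L against US and -1.18 ± 0.48 in L against S. Counts of called genes were 0 of 10 in each, where 0.0177% (S against US), 0.0% (L against US) and 0.0% (L against S) of all genes were called. At an unadjusted p under 0.05, 2, 3 and 2 of the 10 were lower, against 13.7%, 6.27% and 10.4% of all genes. DESeq2 called Mt1 and Mt2 in S against US and Mt2 in L against US. Limma on log2(TPM + 1) called 0 of the genes it tested, which left out Slc7a11. The shares of all genes called by these tools are not given.

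At days 7 and 28 several genes differed between sizes without overlap and without a call. At day 7, 3 of the 10 were higher in S against US and 2 lower in L against S without overlap, and 0 in L against US. At day 28, 1 was higher and 1 lower in S against US, and 2 were higher in each of L against US and L against S. The share of all genes without overlap is not given for these comparisons. The genes past the unadjusted p follow. Hmox1 had 56.9, 59.0 and 63.9 CPM in S lungs at day 7, against 43.1, 48.0 and 52.7 CPM in US lungs, with no overlap (log2 difference 0.30 ± 0.14, adjusted p 0.376, edgeR). Gclc had 149, 142 and 193 CPM in L lungs at day 7, against 214, 213 and 253 CPM in S lungs, also with no overlap (-0.46 ± 0.20, adjusted p 0.695). Nqo1 had 7.66, 7.00 and 7.97 CPM in L lungs at day 28, against 5.11, 4.29 and 5.00 CPM in US lungs, with no overlap (0.61 ± 0.22, adjusted p 0.256). Gpx2 had 23.4, 25.7 and 24.6 CPM in L lungs at day 28, against 17.7, 15.4 and 17.4 CPM in US lungs (0.50 ± 0.24, adjusted p 0.439). These were the genes that passed the unadjusted p. Among the others without overlap at day 7, Slc7a11 had 4.58 to 5.33 CPM in S lungs, against 1.83 to 3.64 CPM in US lungs. Mt1 had 24.7 to 40.7 CPM in S lungs at day 7, against 14.5 to 19.7 CPM in US lungs. EdgeR and DESeq2 called 0 of 10 in all 6 comparisons, and limma on log2(TPM + 1) called 0 of the genes it tested, which left out Slc7a11. At day 7 the numbers passing the unadjusted p were 1 in S against US, 0 in L against US and 1 in L against S. The shares of all genes called were 0.142%, 0.00592% and 0.154%, and those past the unadjusted p 13.2%, 15.0% and 6.69%. At day 28 the numbers passing the unadjusted p were 0 in S against US, 2 in L against US and 0 in L against S. The shares of all genes called were 0.0%, 0.515% and 0.0651%, and those past the unadjusted p 5.44%, 11.3% and 3.76%.

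Whether the effect of a material differed between days was tested as a difference of differences. For US, all 10 fitted effects were smaller at day 7 than at day 1 and at day 28 than at day 1, with 0 of 10 called by edgeR and 4 lower at the unadjusted p each time. At day 7 minus day 1 these were Mt2 (-3.97 ± 1.043, adjusted p 0.107), Mt1 (-2.75 ± 0.79), Slc7a11 (-1.53 ± 0.73) and Hmox1 (-0.61 ± 0.20). At day 28 minus day 1 they were Mt2 (-2.51 ± 1.08), Slc7a11 (-1.79 ± 0.73), Nqo1 (-0.68 ± 0.32) and Txnrd1 (-0.49 ± 0.20). Of all genes 0.136% were called and 15.0% passed the unadjusted p at day 7 minus day 1, and 0.0473% and 10.8% at day 28 minus day 1. The Mt1 and Mt2 values rest on US day 1 replicate 1: without it the day 7 minus day 1 values were -0.66 and -0.49, and Mt2 at day 28 minus day 1 was 0.97. The other genes past the unadjusted p also moved. Without that library Slc7a11 was at -1.11 (day 7) and -1.37 (day 28), Hmox1 at -0.47 (day 7) and Txnrd1 at -0.22 (day 28). Nqo1 at day 28 minus day 1 ran from -0.87 to -0.34 over the libraries left out in turn. The share of all genes with an effect below 0 is not given.

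For S, Gclc was at -0.93 ± 0.28 at day 28 minus day 1 (adjusted p 0.116, edgeR), and without S day 1 replicates 1, 2 and 3 in turn it was -1.18, -0.88 and -0.69, with adjusted p = 0.0229, 0.212 and 0.274. It was the 1 gene of the 10 past the unadjusted p there, and 0 were called, against 21.1% and 0.195% of all genes. At day 7 minus day 1 S had 0 called and 0 past the unadjusted p, against 0.0% and 9.79% of all genes. For L, 0 were called and 0 passed the unadjusted p at day 7 minus day 1 (0.0% and 3.33% of all genes) and at day 28 minus day 1 (0.243% and 12.5%). DESeq2 called Mt1 and Mt2 for US at day 7 minus day 1, Gclc for S at day 28 minus day 1, and 0 of 10 in the other 4. Limma on log2(TPM + 1), which did not test Slc7a11, called 0 in all 6. The shares of all genes called by these tools are not given.

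The D lungs themselves differed between days, and the only call of edgeR among the 10 genes in the 30 comparisons was there. Mt1 fell to 7.17, 8.94 and 9.29 CPM in D lungs at day 28, against 35.5, 23.1 and 22.1 CPM in D lungs at day 7. The groups did not overlap, the level was 3.17-fold lower (log2 fold change -1.67 ± 0.58), and the adjusted p was 0.0491. In D lungs of day 1 it had 10.96, 11.6 and 17.2 CPM, between the other days. Mt2 followed the same order with 2.46, 2.74 and 3.36 CPM in D lungs at day 28, against 10.6, 6.62 and 8.35 CPM in D lungs at day 7 (log2 fold change -1.57 ± 0.79, adjusted p 0.156, edgeR). Hmox1 had 35.4, 43.1 and 40.4 CPM in D lungs at day 28, against 53.1, 46.7 and 48.3 CPM in D lungs at day 7 (-0.32 ± 0.15, adjusted p 0.119). The Mt1 call was lost without any 1 of D day 7 replicates 1 and 2 and D day 28 replicates 1, 2 and 3, with adjusted p up to 0.246, and held without D day 7 replicate 3 (0.0366).

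Calls were frequent in that comparison, 15.6% of all genes, so 1 of 10 is near the background, as are the 2 genes past the unadjusted p (34.9% of all genes). D day 28 against D day 1 had 0 of 10 called (0.0769% of all genes) and 0 past the unadjusted p (5.4%). D day 7 against D day 1 had 0 of 10 called (0.0%) and 0 past the unadjusted p (24.2%). DESeq2 also called Mt1 alone in D day 28 against D day 7, while limma on log2(TPM + 1) called 0, and both called 0 in the other pair. Markers of airway, fat and cardiac muscle cells and clock genes differed between the same libraries. Of 9 club and secretory airway genes, 5 were called lower in D lungs at day 28 than at day 7 (Scgb3a1, Bpifa1, Muc5b, Bpifb1 and Reg3g, 6.13- to 25.7-fold) and 0 higher, although the summed level of the list overlapped. Fat cell genes summed to 15.0 to 20.1 CPM in D lungs at day 28, against 27.5 to 51.1 CPM in D lungs at day 7, with 1 of 6 tested called lower. Cardiac muscle genes summed to 56.7 to 126.5 CPM in D lungs at day 28, against 150.5 to 199 CPM in D lungs at day 7. Clock genes in phase with Arntl summed to 227 to 248 CPM in D lungs at day 28, against 110.8 to 186 CPM in D lungs at day 7, and the part of these lists in the Mt1 value was not tested.

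Other genes of the same pathways gave few calls against D. Of 35 other known Nrf2 targets, 0 were called by edgeR in US, S or L against D at days 1 and 7 and in US and S at day 28, and 2 were called in L at day 28. Ftl1, the light chain of the iron store ferritin, averaged 1230 CPM in L lungs and 744 CPM in D lungs (n = 3 each), and rose by a log2 of 0.69 ± 0.18 (SE, adjusted p 0.033, edgeR). Aldh3a1, an aldehyde dehydrogenase, fell 2.00-fold, at 10.5 ± 2.20 CPM in L lungs and 20.6 ± 2.60 CPM in D lungs (adjusted p 0.0201). Both calls were lost without D day 28 replicate 1 or 2 or L day 28 replicate 1 or 3, while a fit of only the groups compared called 5. Ftl1 averaged 1060 CPM in D lungs at day 7, above its D level at day 28. The recruited or particle-laden macrophage list was higher in the same L libraries, and its part in the Ftl1 value was not tested. In US at day 1, 8 of the 35 were higher and 0 lower at an unadjusted p under 0.05, with a median log2 fold change of 0.11, and in S at day 1 2 were higher and 5 lower, with a median of -0.11. In US at day 7, 2 were higher and 8 lower, with a median of -0.13. Over all genes and both directions, 16.1% passed the unadjusted p in US at day 1, 21.0% in S at day 1 and 25.7% in US at day 7, so the S and US day 7 counts of 7 and 10 of 35 are near the background.

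No regulator of these genes was called against D. Of 11 genes for Nrf2, its partners and repressors and Mtf1, 0 were called by edgeR in any of the 9 comparisons, and at the unadjusted p 2 were higher in US and 3 in S at day 1, beside those 16.1% and 21.0% of all genes. Nfe2l2, which encodes Nrf2, had 243, 228 and 254 CPM in US lungs at day 1, against 258, 230 and 239 CPM in D lungs. Keap1 had 51.1, 51.7 and 45.0 CPM in US lungs, against 42.1, 46.1 and 51.1 CPM in D lungs, and both genes overlapped between the groups. Bach1 had 97.9, 102.1 and 97.8 CPM in S lungs at day 1, against 82.7, 81.6 and 83.4 CPM in D lungs, with no overlap and no call.

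Zinc handling was read from 18 tested zinc transporters and further metallothionein genes, of which 0 were called against D at any day. At the unadjusted p 7 were higher in US at day 1, 6 in S and 3 in L, and 0 were lower in each, with median log2 fold changes of 0.19, 0.14 and 0.08. The shares of all genes past it, in either direction, were 16.1% in US, 21.0% in S and 4.94% in L. Slc30a1, the zinc exporter of the cell surface, had 94.2, 84.2 and 90.3 CPM in S lungs at day 1, against 73.4, 65.7 and 71.6 CPM in D lungs, with no overlap. Slc39a14 had 21.3, 39.8 and 43.0 CPM in S lungs, against 24.8, 25.5 and 22.7 CPM in D lungs, with replicate 1 below D. Of 15 other antioxidant enzymes 0 were called against D in the 9 comparisons. Of 12 haem, iron and oxygen-responsive genes 0 were called, and at day 1 6 were higher in US and 5 in S at the unadjusted p, beside the same shares of all genes.

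Cyba, a membrane subunit of the phagocyte NADPH oxidase, rose 1.79-fold in L lungs against D lungs at day 28 (log2 0.84 ± 0.21, adjusted p 0.0295, edgeR). The recruited or particle-laden macrophage list was higher in the same L libraries, and its part in the Cyba value was not tested. Cyba itself was 1.63-fold lower in D lungs at day 28 than in D lungs at day 7 (adjusted p 0.0306, edgeR). In the other lists, Lcn2 was the 1 of 12 acute-phase genes called in US at day 1, rising 7.72-fold to 1330 ± 1040 CPM in US lungs, against 182 ± 55.5 CPM in D lungs. The acute-phase count was 0 without US day 1 replicate 1 and without any 1 of the D day 1 libraries. It was also 0 with limma and with only the groups compared, but 8 under DESeq2 and 11 without US day 1 replicate 2. Tsc22d3 was the 1 of 10 glucocorticoid-induced genes called in S at day 28, falling 2.20-fold to 94.2 ± 9.14 CPM in S lungs, against 206 ± 27.2 CPM in D lungs. That call was lost under the replicate block and without any 1 of the 6 libraries (0 called in each).

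In D lungs, day 28 against day 7 gave calls in several of these lists, beside 15.6% of all genes called. Of the 15 other antioxidant enzymes 6 fell and 0 rose, among them Gpx1 (1.61-fold), Gpx4 (1.56-fold), Prdx5 (1.54-fold) and Sod1 (1.46-fold), which remove peroxides and superoxide. Of the 35 other Nrf2 targets 3 fell (Txn1, Ftl1 and Taldo1) and 0 rose, and of the zinc genes 4 of 18 rose (Slc39a10, Slc39a9, Slc30a7 and Slc30a4), a share below the background for the Nrf2 targets and near it for the zinc genes. Mtf1 rose by a log2 of 0.48 ± 0.13 (SE), at 34.2 ± 0.776 CPM in D lungs at day 28 and 24.4 ± 2.22 CPM in D lungs at day 7 (adjusted p 0.025, edgeR), while Mt1 fell.

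Across the 36 libraries the 10 genes did not vary as 1 group. These correlations of log2 CPM describe libraries that share groups and days, and no test is attached to them. The highest values of Pearson's r were those of Hmox1 and Slc7a11 (0.79), Mt1 and Mt2 (0.787), Hmox1 and Mt2 (0.78) and Gclm and Txnrd1 (0.74). Without the 2 libraries farthest from the median they were 0.734, 0.608, 0.761 and 0.704 in the same order of pairs, so the pair with the highest value depended on those libraries. The lowest value was that of Gclc and Gpx2, at -0.385, and Nqo1 had r = -0.231 with Gclc. Over 14718 genes with a mean of at least 1 CPM, the genes most like each were looked up by Pearson's r. Slc7a11 was most like Ear6 (0.895), Lilrb4 (0.893) and Clec5a (0.888), and Srxn1 like Msr1 (0.814), Gla (0.799) and Clec5a (0.796). Txnrd1 was most like Csf2rb (0.885), Eif4a1 and Pwp1. Hmox1 was most like Rnh1 (0.847), Lrg1 (0.831) and Lcn2 (0.827). Gclc was most like Il33 (0.925), Steap2 (0.906) and Cpeb2 (0.883), and Gclm like Asah1 (0.854), Mtdh and Mapk6. Mt1 was most like Hmga1 (0.859), 1700017B05Rik and Rab20, and Mt2 like Tmem37 (0.854), Ptges and Pak6 (0.85). Without the 2 libraries farthest from the gene's median, Mt1 had 0.734 with Hmga1, and Mt2 had 0.711 with Tmem37, 0.715 with Ptges and 0.563 with Pak6. These likenesses thus rest in part on those libraries, while Gclc kept 0.879 with Il33 and Slc7a11 kept 0.866 with Ear6. Gpx2 was most like Gsta4 (0.883) and Gstp1 (0.864), followed by Uxt, and Nqo1 had the weakest likeness, with Arsg (0.724), Dpep2 and Tsku.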

How the data were processed

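Polyadenylated lung RNA from 36 samples was sequenced as stranded libraries, per the labels' protocols. The authors deposited a table of raw read counts per Ensembl gene (46078 genes) and, per sample, TPM values, beside FPKM and coverage values that were not used here. Tools named without roles in the submitters' processing notes are STAR 2.5.1b, featureCounts 1.5.1, StringTie 1.3.3, CASAVA and bcl2fastq 2.19.1.403, beside the builds GRCh37 and GRCm38. Gene spans are those in the deposited GRCm38 tables. No source used here gives the annotation release or the strand setting, and overlapping genes may share reads.

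The 10 genes and all lists were chosen with earlier results of these data known. Counts of all 36 libraries were filtered (filterByExpr, 16903 genes kept), normalised with TMM, whose factors were 0.932 to 1.06, and entered 1 edgeR 4.0.16 model (R 4.3.3) with a mean per group. The two-sided quasi-likelihood test was used, with Benjamini-Hochberg adjustment over all genes and a threshold of 0.05. The code was checked on simulated counts. CPM is the count scaled by the library total, groups are given as mean ± SD, and fits as log2 fold change ± SE. Replicates of a group differed beyond sampling noise (chi-square per degree of freedom 6.56 to 68.7), so none was treated as a duplicate.

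As alternatives, edgeR was run with DESeq2's size factors, without a filter and with a replicate block; others were DESeq2 1.42.0, only the groups compared, limma 3.58.1 on log2(TPM + 1) for genes of mean TPM of at least 1, S day 7 replicate 2 thinned to 19514204 counts, and each library left out in turn. Named genes were all 10, the called genes of the other lists (up to 6 per list and comparison, by p) and the 3 genes most correlated with each of the 10 (log2 CPM). Nfe2l2, Keap1, Bach1, Slc30a1, Slc39a14, Fkbp5 and Mmp12 were named for their roles or marker value after their values were seen. Slc7a11 fell below the TPM minimum and was not tested by limma. Summed CPM of marker lists is given beside results. The list of oxidant-producing enzymes is not reported here in full.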

Additional observations from a re-analysis of the deposited data

How the results depend on the processing

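The counts of called genes among the 10 changed as follows. The shares of all genes called under these alternatives are not given, so the counts have no background beside them. Without a filter on low counts edgeR called 3 in US against D at day 1 and 1 in the US effect at day 7 minus day 1. DESeq2 called 4 in US against D and 2 in the mean of the sheets at day 1, 2 in S against US and 1 in L against US at day 1, 2 in the US effect at day 7 minus day 1 and 1 in the S effect at day 28 minus day 1. The fit of only the groups compared called 1 in S against D at day 7, 2 in L against D and 3 in the mean of the sheets at day 28, 3 in D day 28 against D day 7 and 1 in the S effect at day 28 minus day 1. Limma on log2(TPM + 1), which did not test Slc7a11, called 0 in all 30 comparisons, so D day 28 against D day 7 had 0. Leaving out 1 library gave 0 to 5 in US against D, 0 to 3 in S against D and 0 to 2 in the mean of the sheets at day 1, and 0 to 1 in US against D at day 7. It gave 0 to 2 in S against US and 0 to 1 in L against US at day 1, 0 to 1 in D day 28 against D day 7, 0 to 2 in the US effect at day 7 minus day 1 and 0 to 1 in the S effect at day 28 minus day 1. The cause was not tested. In all, 412 of these counts under an alternative were as in the reported fit and 32 were not, and DESeq2's size factors in edgeR and the thinned library changed none.

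Directions turned in 5 values, all when US day 1 replicate 1 was left out. Over the libraries left out in turn, Mt1 in US against D at day 1 ran from -0.07 to 2.50 (log2), Mt1 in L against US from -2.16 to 0.48, Mt2 in S against US from -3.12 to 0.91, Mt2 in L against US from -3.52 to 0.50, and Mt2 in the US effect at day 28 minus day 1 from -3.05 to 0.97.

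The replicate block removed the 1 call in D day 28 against D day 7 (0 of 10, Mt1 adjusted p = 0.0589, edgeR) and changed no other count of the 10. The replicate numbers did not pair the samples: 11 of 54 pairs of same-numbered libraries had a correlation above 0.1 (-0.457 to 0.352), and 7 of 36 libraries were closest to their own number.

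Counts of the other lists over all alternatives ran from 0 to 11 for the acute-phase genes (US, day 1), 0 to 5 for the other Nrf2 targets (L, day 28) and 0 to 1 for the glucocorticoid-induced genes (S, day 28). In D day 28 against D day 7 they ran from 0 to 10 for the other Nrf2 targets, 0 to 8 for the other antioxidant enzymes, and 0 to 4 each for the zinc genes and the regulators. Slc7a11 and Mt2 rest on 24 to 369 and 45 to 3960 counts a library, which limits their precision. With 3 libraries a group, 1 library can decide a value.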
